A study of Mus musculus with 8 samples.

Results

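The 10 long noncoding RNAs (lncRNAs) of the mouse retina, Meg3, Rian, Mirg, Malat1, Neat1, Miat, Tug1, Snhg11, Rmst and Six3os1, were followed through the deposited gene table. They were picked by name as nuclear and neural RNAs of this class, and 10 of the 17500 genes in the table matched. RNA of whole retinas was sequenced from 4 control and 4 Rbfox2 KD mice, all 6 months old. The Rbfox2 KD group carried Rbfox2 fl/fl and a Cre recombinase switched on by tamoxifen in many tissues, which removes part of the gene for the splicing factor Rbfox2 in adult animals. The controls were age-matched heterozygous Rbfox2 fl/+ mice, so both groups had at least 1 floxed allele. Retinas were taken 4 months after tamoxifen, which the labels list for every sample but the authors state only for the Rbfox2 KD mice. Whether the controls carried Cre, and whether they received tamoxifen or only the corn oil vehicle, is not clear from the sources used here. A difference in treatment between the groups thus cannot be told apart from the deletion. The deletion was not restricted to a single retinal cell type. Each library is named by its mouse number (controls M833, M894, M896 and M898, and Rbfox2 KD M893, M901, M902 and M909), and the labels do not tie mice of different groups to each other.

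lncRNAs are transcripts that are processed like mRNAs but are not known to code for a protein, and many stay in the nucleus. Meg3, Rian and Mirg are made from the maternal copy of the imprinted Dlk1-Dio3 region, where Rian hosts small nucleolar RNAs and Mirg hosts many microRNAs. Malat1 collects in nuclear speckles beside splicing factors, and Neat1 is the scaffold of paraspeckles. Miat forms its own nuclear bodies in neurons, Tug1 was first described in the developing retina, and Six3os1 is transcribed opposite to the eye field gene Six3. Rmst is a neural RNA known as a partner of the factor SOX2, and Snhg11 is a neuronal host gene of small nucleolar RNAs. The libraries were made from polyadenylated RNA. The mature end of Malat1 and that of the long form of Neat1 are cut by RNase P and carry no poly(A) tail, while the short form of Neat1 is polyadenylated. In whole retina, fewer cells of a type and less RNA per cell cannot be told apart.

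The libraries held 160630226 to 211283591 counts, of which the 10 lncRNAs took 0.209% to 0.320%. Rbfox2, the targeted gene, was lower in the Rbfox2 KD libraries (53.6 to 59.4 against 144 to 157 CPM, log2 fold change -1.41, SE 0.05, adjusted p = 5.5e-07, edgeR quasi-likelihood test, Benjamini-Hochberg). CPM, used throughout for the level of 1 gene across libraries, are counts scaled to 1000000 per library with edgeR's TMM factors. M901 and M902 stood apart: Xist, the RNA of the inactive X chromosome, had 277506 and 275967 counts there and 312 to 426 in the other 6 libraries, and their summed ciliary epithelium markers (4 of 4 tested) were 7.43 and 7.44 against 25.8 to 52.3 CPM. These 2 libraries were set apart on the leading axis of a principal component analysis (48.8% of the variance), and M909 on the next axis (19.5%). The summed rod markers, 65726 to 74358 CPM (10 of 10 tested) marked the tissue as retina, and of the marker genes checked edgeR called only Calb1, a horizontal cell marker (log2 fold change -0.40, adjusted p = 0.0034). Calb1 was at -0.43 without M901 and M902, with an adjusted edgeR p of 0.0501, and was then not called. DESeq2, which called 2.74% of all genes, called Calb1 and 11 further markers. They were 4 of 10 rod markers (Gnat1, Pde6b, Pde6g and Sag), 2 of 8 of cones (Gngt2 and Opn1sw) and 2 of 9 of bipolar cells (Isl1 and Pcp2). The rest were 1 of 11 amacrine cell (Th), 1 of 8 Muller glia (Glul) and 1 of 6 vessel markers (Rgs5). The median log2 fold changes of these lists in that fit were 0.11 for rods and 0.17 for cones. They were -0.09 for bipolar cells, -0.05 for amacrine cells, -0.09 for Muller glia and -0.14 for vessels. Both high-Xist libraries are in the Rbfox2 KD group, so values that moved most when they were left out are also given without them.

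Rbfox2 binds RNA at the sequence UGCAUG, written TGCATG in DNA letters, and its occurrences in the lncRNAs are shown for that reason. The GENCODE M21 transcript (GRCm38) closest in length to the model behind the deposited values was searched on the sense strand for each lncRNA. For Meg3, Rian and Six3os1 that transcript does not carry the RefSeq identifier of the gene's row and was matched by length alone. Their lengths were 1896 against 1913 bases, 3476 against 3579 and 1265 against 1290. The transcripts searched for these genes may thus differ from the models counted. TGCATG was present in 6 of the 10 models and in 50.17% of the closest models of the 16668 genes of the table that matched the annotation. Malat1 had 3, Miat had 2, and Meg3, Neat1, Tug1 and Snhg11 had 1 each, while the models of Rian, Mirg, Rmst and Six3os1 had none. Each line gives up to 30 bases with TGCATG in capitals.
Malat1 site 1: cagcagcagcagTGCATGgtgaagatagcc
Malat1 site 2: gatctgcagtatTGCATGttagggatagat
Malat1 site 3: catttccaaataTGCATGttgagtttaaat
Neat1: attctttgcggaTGCATGaatggcagcagg
Miat site 1: aaaggggaaggcTGCATGgtgtgattaacc
Miat site 2: tgtgtgtgtgtgTGCATGagagagtgagag
Tug1: ttcaggaatggaTGCATGattcaagtttgt
Snhg11: gggtggtggtggTGCATGcctttatttcca
Meg3: cctcaagttgccTGCATGttatatggccta
The Malat1 sites lie in its only exon at chr19:5801246-5801275, chr19:5798782-5798811 and chr19:5797987-5798016, on the minus strand. The Neat1 site, also on the minus strand, lies in exon 2 at chr19:5844112-5844141. Both Miat sites are in exon 7 on the minus strand, at chr5:112217451-112217480 and chr5:112213708-112213737. The Tug1 site is in exon 2 at chr11:3640127-3640156 (minus strand), and the Snhg11 site in exon 5 at chr2:158381445-158381474 (plus strand). The Meg3 window starts at chr12:109543821 in exon 2 and crosses a splice junction to chr12:109544027. In the longest annotated transcripts the motif was present in 9 of 10 lncRNAs and in 56.63% of the genes. A longer sequence has more places for it, and lengths were not matched. There were 10 occurrences in the 14548 bases of the longest Meg3 transcript, 9 in the 20771 bases of the long form of Neat1 and 4 in the 8089 bases of Rian. Per kilobase of the closest models there were 0.2146 occurrences in the 10 lncRNAs and 0.2854 over all genes. Introns were not searched. These matches are a description of the letters and no binding was measured here.

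The lncRNAs covered a wide range of levels. Levels of different genes were compared by the deposited FPKM (fragments per kilobase of transcript, scaled to 1000000 fragments), since this unit divides by length. Meg3 was first with a median of 371 FPKM over the 8 libraries and a range of 302 to 516, which placed it 67th among the 17500 genes of the table. Malat1 (median 112, range 73.4 to 194) and Snhg11 (median 107, range 87.7 to 147) followed with overlapping ranges, and Malat1 was the higher of the pair in 4 of 8 libraries, so these neighbours did not differ beyond their spread. Six3os1 (median 61.3, range 55.8 to 66.4), Rian (25.7, 22.6 to 28.7) and Tug1 (19.8, 18.97 to 20.5 FPKM) came next, with no overlap between neighbours. Neat1 (median 7.05, range 4.55 to 9.27) overlapped with Miat (5.21, 3.83 to 7.02), and Miat overlapped with Mirg (3.65, 3.31 to 4.82), although Miat was above Mirg in 8 of 8 libraries. Neat1 was above Miat in 6 of 8. Rmst was last with a median of 1.84 FPKM and a range of 1.598 to 2.17.

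**Figure D1:**
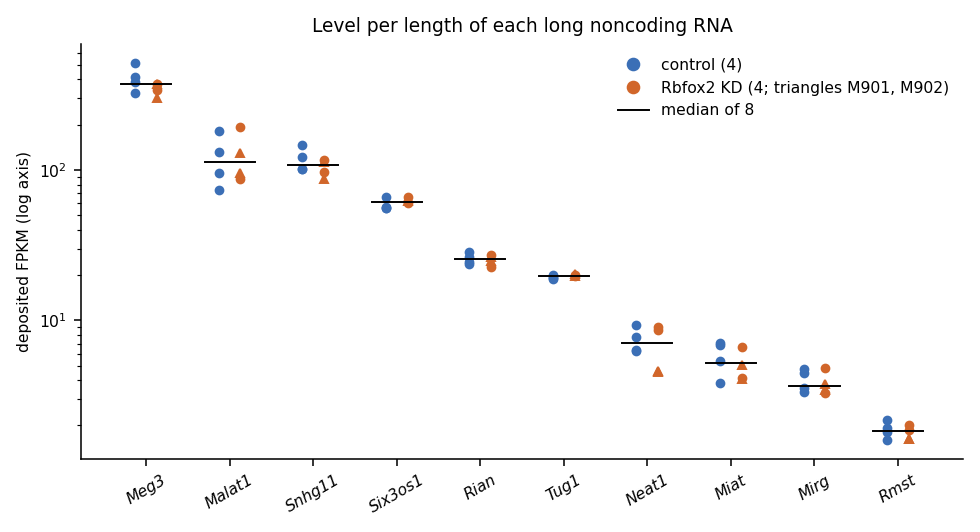
Deposited FPKM on a log axis for each of the 10 lncRNAs, in order of the median of 8 libraries (black line); blue points are the 4 control and orange points the 4 Rbfox2 KD libraries, with M901 and M902 as triangles. Meg3 sits above the others at 302 to 516 FPKM, and the ranges of Malat1 and Snhg11, of Neat1 and Miat and of Miat and Mirg overlap.

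This order depended on the length by which each count was divided. The length behind the deposited values, recovered from counts, FPKM and library totals, was 1913 bases for Meg3, 1290 for Six3os1 and 3177 for Neat1. All annotated exons of these genes together span 18089, 11884 and 20771 bases. For Malat1 the length was 6982 bases, next to 6983 bases of annotated exon. With counts per kilobase of all annotated exons none of the 10 lncRNAs kept its rank: Malat1 came first with a median of 112, followed by Snhg11 with 73.8 and Meg3 with 39.2 CPM per kilobase. With the 4 control libraries alone, 10 of 10 kept their rank in the deposited FPKM.

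No lncRNA of the 10 passed the test between Rbfox2 KD and control retinas. All 10 passed the filter on low counts, and 0 had an adjusted p under 0.05 in the quasi-likelihood test of edgeR, adjusted by the Benjamini-Hochberg method over 16797 genes. In the same test 11 genes were called (0.0655% of those tested). At an unadjusted p under 0.05 there were 0 of 10 lncRNAs and 13.3% of all genes, and in 0 of 10 did the groups of 4 libraries stay apart, against 7.03% of all genes. DESeq2, limma-voom and limma-trend also called 0 of 10, each with 1 at an unadjusted p under 0.05, Six3os1. Over all genes DESeq2 called 2.74% and each limma fit 0.0655%, and at an unadjusted p under 0.05 there were 14.3% with DESeq2, 12.8% with limma-voom and 13.1% with limma-trend. The count of lncRNAs called was also 0 without M901 and M902 and with 1 surrogate variable, where 0.00585% and 0.0298% of all genes were called. The surrogate variable was 0.58 in M901 and in M902 and -0.43 to -0.03 in the other 6 libraries. Both settings thus largely adjust for the same split of libraries and are not independent checks, here and below. 7 of the 10 fitted log2 fold changes were below 0 and 3 were above, and the median over all genes was 0.0016. The data by library are given in the order of the imprinted cluster, the nuclear body RNAs, and the neural and eye field RNAs.

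**Figure D2:**
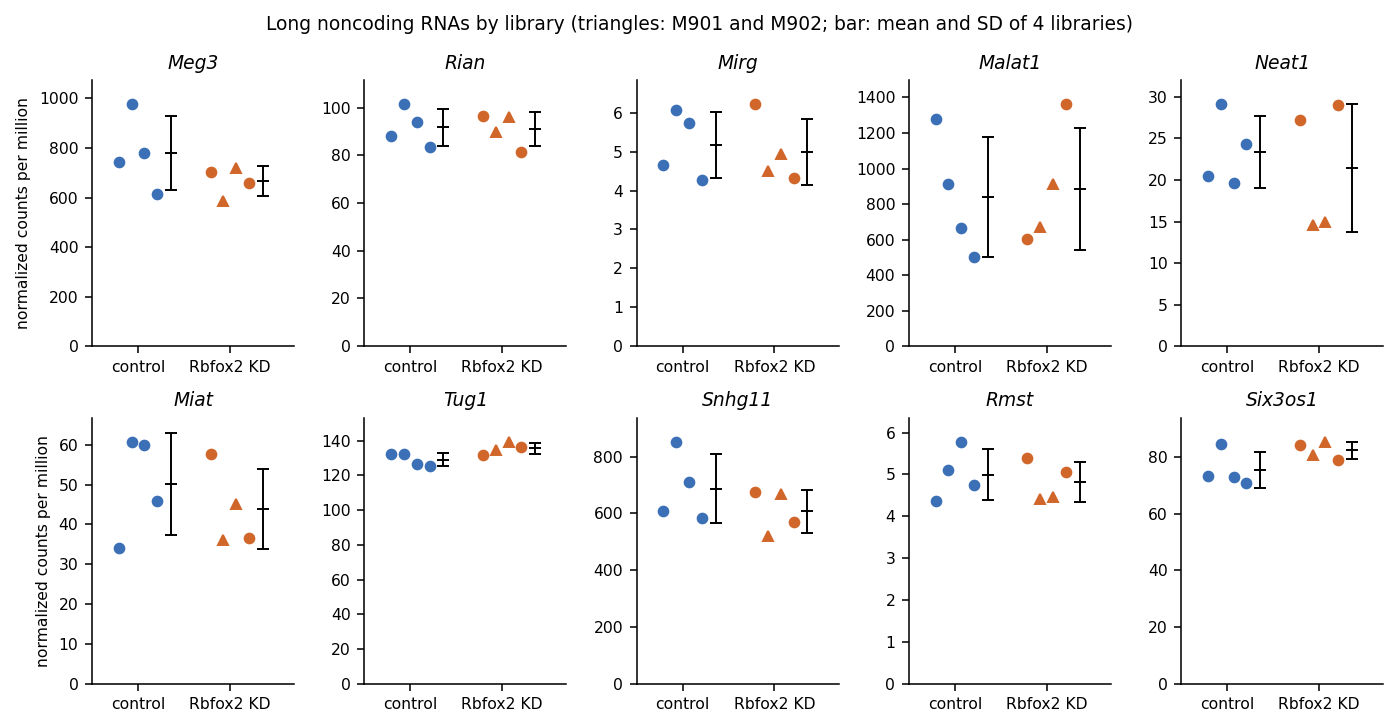
CPM (vertical axes from 0) of each lncRNA in the 4 control (blue) and 4 Rbfox2 KD (orange) libraries, with M901 and M902 as triangles and the mean ± SD of each group as a black bar. The groups overlap for all 10 lncRNAs, Tug1 and Six3os1 have the narrowest bars, and Neat1 splits the Rbfox2 KD libraries into 14.6 and 14.9 against 27.2 and 29.0.

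Meg3 (maternally expressed gene 3, chr12:109541001-109571726, plus strand) was measured at 744, 976, 782 and 615 CPM in controls M833, M894, M896 and M898. In the Rbfox2 KD libraries M893, M901, M902 and M909 it was 703, 585, 719 and 659. The control M894 was the highest library and M901 the lowest, and 3 of the 4 Rbfox2 KD values lay within the control range. The means were 779 ± 149 and 666 ± 59.8 (SD, n = 4 each), a log2 fold change of -0.23 (95% interval -0.50 to 0.05, SE 0.12, adjusted p = 0.455 by edgeR's quasi-likelihood test). It depended on single controls: without M894 it was -0.10, with an unadjusted edgeR p of 0.330 and an adjusted p of 0.725, and without M898 it was -0.32, with an unadjusted p of 0.011 and an adjusted p of 0.446. The promoter is shown because Meg3 was among the 4 lncRNAs with the lowest unadjusted p. It is the RefSeq sequence (GRCm38.p6, plus strand) from 250 bases before to 50 after the start, chr12:109540746-109541045, with motif letters in capitals.
Meg3 promoter: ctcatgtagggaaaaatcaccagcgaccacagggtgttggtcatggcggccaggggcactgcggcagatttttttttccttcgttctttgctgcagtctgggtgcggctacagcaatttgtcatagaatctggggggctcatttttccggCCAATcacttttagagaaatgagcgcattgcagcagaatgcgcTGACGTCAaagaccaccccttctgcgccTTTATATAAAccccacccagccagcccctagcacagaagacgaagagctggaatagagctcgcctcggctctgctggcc
The capitals mark, from 5′ to 3′, a CCAAT box (CCAAT), the palindromic cAMP response element (TGACGTCA) and a TATA box (TATAAA) that overlaps its complement. Both strands were searched. TGACGTCA was found in 1.88% of 27025 promoters of this length, TATAAA in 14.16% and CCAAT in 37.92%. Of the 10 lncRNAs 8 matched a promoter in the reference, and among these TGACGTCA and TATAAA were each found only in that of Meg3, at the first of its 2 listed starts.

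Rian (chr12:109603940-109661716, plus strand) was nearly even across the libraries. It had 88.2, 101, 94.0 and 83.3 CPM in controls M833, M894, M896 and M898, and 96.6, 89.8, 96.1 and 81.5 in M893, M901, M902 and M909. The log2 fold change was -0.01 (95% interval -0.17 to 0.14, adjusted p = 0.963 by edgeR's quasi-likelihood test). Its sign turned without M894 (0.04), M896 (0.00054) or M909 (0.04). Mirg (chr12:109729764-109749460, plus strand) was much lower in counts, with 4.66, 6.06, 5.73 and 4.27 in the controls and 6.21, 4.51, 4.95 and 4.32 in the Rbfox2 KD libraries, again with overlapping groups. Its log2 fold change was -0.05 (95% interval -0.37 to 0.27, adjusted p = 0.912 by the same edgeR test), and it was 0.02 without M901 and M902, 0.03 without M894, 0.0011 without M896 and 0.01 without M909.

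These host transcripts carry microRNAs, small RNAs that pair with target mRNAs through a seed at bases 2 to 8. RefSeq lists 3 mature microRNAs inside Meg3, 6 inside Rian, 26 inside Mirg and 4 inside Rmst, on the strand of the host, and none inside the other 6 lncRNAs. Mirg thus hosts the most, from 14 hairpins, and its 26 mature sequences have 25 different seeds. The pair with a shared seed, miR-453 and miR-496a-5p, is printed with 1 further product of each host, with the seed in capitals.
miR-453: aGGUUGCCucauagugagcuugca
miR-496a-5p: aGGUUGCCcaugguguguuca
miR-134-5p: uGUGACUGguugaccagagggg
miR-370-3p: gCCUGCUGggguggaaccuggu
miR-770-5p: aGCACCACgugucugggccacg
miR-135a-5p: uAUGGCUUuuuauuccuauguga
They lie on chromosome 12 at 109735669-109735692 (miR-453), 109739132-109739152 (miR-496a-5p), 109734145-109734166 (miR-134-5p), 109618305-109618326 (miR-370-3p) and 109563710-109563731 (miR-770-5p), all on the plus strand, and at chr10:92072141-92072163 on the minus strand (miR-135a-5p). The seed of miR-453 and miR-496a-5p was not shared by any of the other hosted sequences. Poly(A) libraries of this kind hold no measure of mature microRNAs. The table has rows for 11 microRNA genes inside Mirg, 2 inside Rian and 1 inside Rmst, with summed counts of 112 to 210, 40 to 90 and 7 to 27 per library, which were counted apart from the host rows.

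Malat1 (chr19:5795690-5802672, minus strand) varied most of the 10. Its 4 controls M833, M894, M896 and M898 had 1278, 910, 664 and 504 CPM, and the Rbfox2 KD libraries M893, M901, M902 and M909 had 604, 671, 910 and 1361. The highest library was thus an Rbfox2 KD library and the next a control, with a 2.70-fold distance between M909 and the lowest library M898. The means were 839 ± 337 and 886 ± 342 (SD, n = 4 each), and the log2 fold change of 0.08 had a 95% interval of -0.61 to 0.77 (SE 0.31, adjusted p = 0.939 by edgeR's quasi-likelihood test). Its sign turned without M896 (-0.02), M898 (-0.10) or M909 (-0.20), and it was 0.35 without M833 and 0.23 without M901 and M902. The spread within groups, as the SD of log2 values, was 0.55, at percentile 99.8 of the 4622 genes with at least 50 CPM and at percentile 94.1 of all tested. The libraries with the highest Malat1, M833 and M909, had the lowest summed ganglion cell markers (814 and 1008 against 1169 to 1336 CPM over 12 of 12 tested markers). The part of this in the Malat1 values was not tested.

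Neat1 (chr19:5824708-5845478, minus strand) lies 22036 bases from Malat1 on the same strand. It had 20.4, 29.1, 19.6 and 24.3 CPM in controls M833, M894, M896 and M898, and 27.2, 14.6, 14.9 and 29.0 in M893, M901, M902 and M909. The high-Xist libraries M901 and M902 were below the other 6, and M893 and M909 lay in the control range. The log2 fold change was -0.12 (95% interval -0.64 to 0.39, SE 0.23, adjusted p = 0.859 by edgeR's quasi-likelihood test). Without M901 and M902 it turned to 0.26 (unadjusted p = 0.106, adjusted p = 0.887 by the same edgeR test), and without either alone to 0.02 or 0.01. With 1 surrogate variable in the fit it was 0.36, with an unadjusted p of 0.0071 and an adjusted p of 0.555. What else differs between the 2 libraries and the rest cannot be told apart from this split.

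Miat (chr5:112213228-112229395, minus strand), also called Gomafu, had 34.0, 60.8, 59.9 and 45.9 CPM in controls M833, M894, M896 and M898. The Rbfox2 KD values were 57.6, 36.2, 45.1 and 36.7 in M893, M901, M902 and M909, within the control range. Its log2 fold change was -0.19 (95% interval -0.63 to 0.25, SE 0.20, adjusted p = 0.714 by edgeR's quasi-likelihood test). It was -0.09 without M894, -0.10 without M896, -0.11 without M901 and -0.12 without M909, and -0.34 without M833 and -0.35 without M893. It was -0.09 without M901 and M902 and -0.04 with 1 surrogate variable. Like Malat1 and Neat1 it was spread more than most genes, with a within-group SD of 0.36 (percentile 87.0 of all tested genes, beside percentile 89.9 for Neat1).

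**Figure D3:**
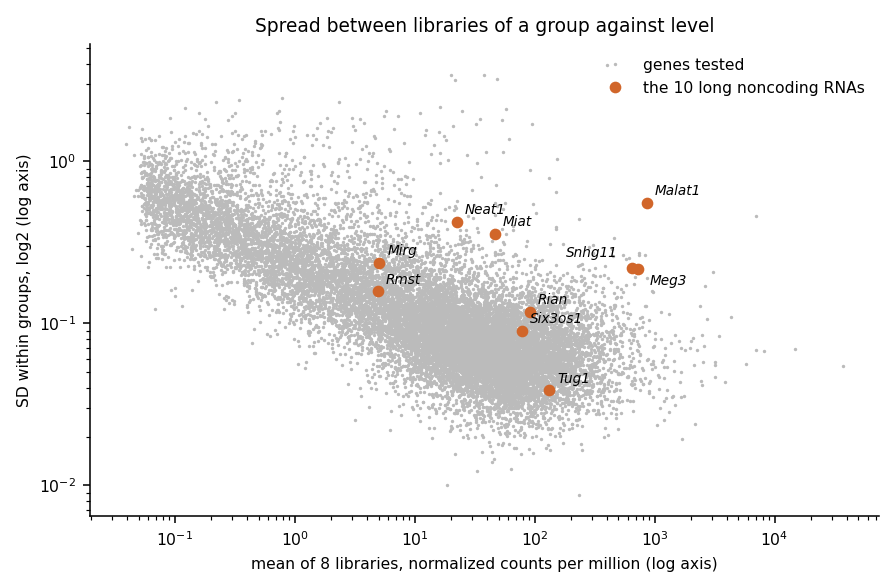
SD of log2 CPM within groups (log axis) against the mean over 8 libraries (log axis), for the genes tested (grey) and the 10 lncRNAs (orange). Malat1 lies at an SD of 0.55, far above genes of like level. Tug1 lies at 0.04, at percentile 14.4 of the 4622 genes with at least 50 CPM.

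Tug1 (chr11:3639785-3649673, minus strand) was the steadiest. It had 133, 132, 126 and 125 CPM in controls M833, M894, M896 and M898 and 132, 135, 139 and 136 in M893, M901, M902 and M909. The Rbfox2 KD libraries M901, M902 and M909 were above the highest control, and M893 was below 2 of the controls. The means were 129 ± 3.76 and 136 ± 3.26 (SD, n = 4 each), a log2 fold change of 0.07 with a 95% interval of -0.0029 to 0.14 (SE 0.03, unadjusted p = 0.058, adjusted p = 0.394 by edgeR's quasi-likelihood test). An exact two-sided permutation test of the mean log2 values gave p = 0.086, where the smallest p that 4 against 4 allows is 0.029. The unadjusted edgeR p was under 0.05 without M833, M894 or M893, and 0.277 was the lowest adjusted p of any alternative. Tug1 overlaps the gene Morc2a on the opposite strand, whose log2 fold change was -0.02. The strand setting of the counting is not given in the sources used here, so reads of the overlap cannot be told apart. The Tug1 promoter (RefSeq, GRCm38.p6, minus strand, chr11:3648765-3649064) is shown as that of a lncRNA near the threshold before adjustment, with a GC box (GGGCGG) in capitals.
Tug1 promoter: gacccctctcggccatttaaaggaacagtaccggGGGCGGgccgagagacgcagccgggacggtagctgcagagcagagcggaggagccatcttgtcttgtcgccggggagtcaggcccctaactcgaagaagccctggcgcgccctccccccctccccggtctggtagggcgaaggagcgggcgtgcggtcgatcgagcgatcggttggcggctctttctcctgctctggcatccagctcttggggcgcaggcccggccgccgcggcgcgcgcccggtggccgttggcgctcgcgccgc
The GC box was present in 35.91% of promoters on either strand, and in 3 of the 8 lncRNAs matched.

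Six3os1 (chr17:85600651-85618398, minus strand) had the lowest p of the 10. The controls M833, M894, M896 and M898 had 73.5, 84.6, 72.9 and 70.8 CPM, and M893, M901, M902 and M909 had 84.4, 80.8, 85.4 and 78.8. Of the controls, 3 were below all Rbfox2 KD libraries, and M894 lay among them. The means of 75.5 ± 6.22 and 82.3 ± 3.07 (SD, n = 4 each) gave a log2 fold change of 0.13 (95% interval -0.0001 to 0.25, SE 0.06, unadjusted p = 0.0501, adjusted p = 0.376 by edgeR's quasi-likelihood test). The exact two-sided permutation test gave p = 0.114. The unadjusted p was under 0.05 in 7 of 18 alternatives, among them the fit without M894, with a log2 fold change of 0.19 and an adjusted edgeR p of 0.178, the lowest of all alternatives. Six3, the eye field factor on the opposite strand that overlaps it, had a log2 fold change of -0.02 (adjusted p = 0.840 by edgeR's quasi-likelihood test), and reads of the overlap cannot be told apart for the reason given for Tug1. Its promoter (RefSeq, GRCm38.p6, minus strand, chr17:85618347-85618646) is shown as the lncRNA with the lowest p, with a GC box and then a CCAAT box in capitals.
Six3os1 promoter: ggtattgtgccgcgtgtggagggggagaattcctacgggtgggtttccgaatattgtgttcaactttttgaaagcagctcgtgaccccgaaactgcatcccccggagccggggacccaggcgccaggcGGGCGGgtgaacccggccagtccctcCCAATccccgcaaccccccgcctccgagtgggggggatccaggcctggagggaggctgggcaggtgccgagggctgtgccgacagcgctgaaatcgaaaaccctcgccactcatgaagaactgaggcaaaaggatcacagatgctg
TAATCC, the core of sites bound by the photoreceptor factors CRX and OTX2, was on neither strand of this window or of those of the other lncRNAs matched, and 7.16% of all promoters had it.

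Snhg11 (chr2:158375638-158386145, plus strand) is listed as protein coding in GENCODE and as a noncoding RNA in RefSeq. It had 607, 852, 709 and 582 CPM in controls M833, M894, M896 and M898, and 674, 521, 668 and 568 in M893, M901, M902 and M909. In all, 2 Rbfox2 KD libraries were below the lowest control and the other two within the control range. The log2 fold change was -0.18 (95% interval -0.46 to 0.10, SE 0.12, adjusted p = 0.571 by edgeR's quasi-likelihood test). It was -0.06 without M894 and -0.11 without M901. Its promoter (RefSeq, GRCm38.p6, plus strand, chr2:158375463-158375762) is the last of the 4 shown and held none of the motifs searched (the CCAAT, GC and TATA boxes, the cAMP response element, the E-box CACGTG and the CRX and OTX2 core), with a GC content of 60.0% against a median of 52.7% over all promoters.
Snhg11 promoter: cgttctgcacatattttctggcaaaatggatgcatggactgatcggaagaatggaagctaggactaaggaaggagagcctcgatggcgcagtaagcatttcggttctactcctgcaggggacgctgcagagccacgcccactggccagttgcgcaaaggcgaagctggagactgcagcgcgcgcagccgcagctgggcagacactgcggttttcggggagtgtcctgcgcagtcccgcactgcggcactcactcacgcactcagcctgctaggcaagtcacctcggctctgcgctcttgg
Rmst (chr10:92071037-92165170, minus strand), the lowest of the 10 in FPKM (Mirg was lowest per kilobase of all annotated exons), had 4.36, 5.10, 5.78 and 4.75 CPM in the controls and 5.38, 4.40, 4.45 and 5.06 in M893, M901, M902 and M909. All 4 Rbfox2 KD values lay within the control range, with a log2 fold change of -0.05 (95% interval -0.29 to 0.19, adjusted p = 0.878 by edgeR's quasi-likelihood test). It was 0.03 without M896 and 0.06 without M901 and M902.

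**Figure D4:**
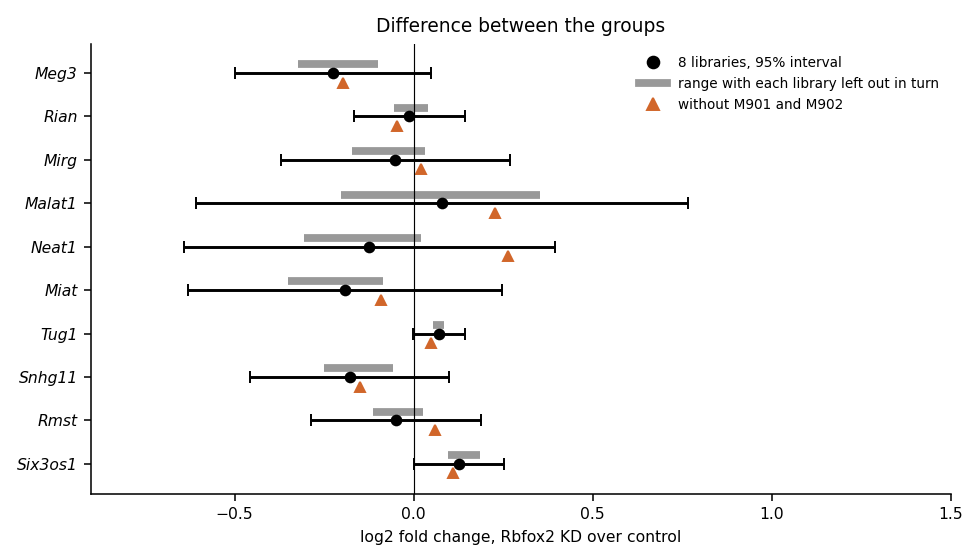
Log2 fold change of Rbfox2 KD over control for each lncRNA with its 95% interval (black), the range with each library left out in turn (grey) and the value without M901 and M902 (triangle). All 10 intervals include 0, Malat1 has the widest (-0.61 to 0.77) and Tug1 the narrowest (-0.0029 to 0.14).

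Whether the lncRNAs varied together from library to library was asked next. Pearson and Spearman coefficients of log2 normalized counts were computed for the 45 pairs over 8 libraries, and 0 pairs passed an adjusted p under 0.05 by the exact permutation test, 9 at an unadjusted p under 0.05. The closest pair was Meg3 and Snhg11, on chromosomes 12 and 2, with r = 0.942 (exact permutation p = 0.0011, Benjamini-Hochberg adjusted p = 0.0502 over 45 pairs) and rho = 0.881 (p = 0.0072, adjusted p = 0.161 by the same exact test). Without M894 and M901, the libraries farthest from the median of Meg3, r was 0.753. Without M901 and M902 it was 0.926, with an adjusted exact permutation p of 0.208. Both were highest in M894 and lowest in M901. Rian and Mirg, neighbours in the imprinted cluster, had r = 0.873 and rho = 0.905 (exact permutation p = 0.0063 and 0.0046, adjusted p = 0.116 and 0.161), and r = 0.818 without the 2 farthest libraries. Meg3 and Rian of the same cluster had r = 0.705 and rho = 0.571 (exact permutation p = 0.045 and 0.151, adjusted p = 0.223 and 0.453). Malat1 and Neat1, neighbours on chromosome 19, had r = 0.127 and rho = 0.238 (exact permutation p = 0.755 and 0.582, adjusted p = 0.871 and 0.794). Libraries scaled together share their normalization and tissue makeup, and the part of either in these coefficients was not tested.

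**Figure D5:**
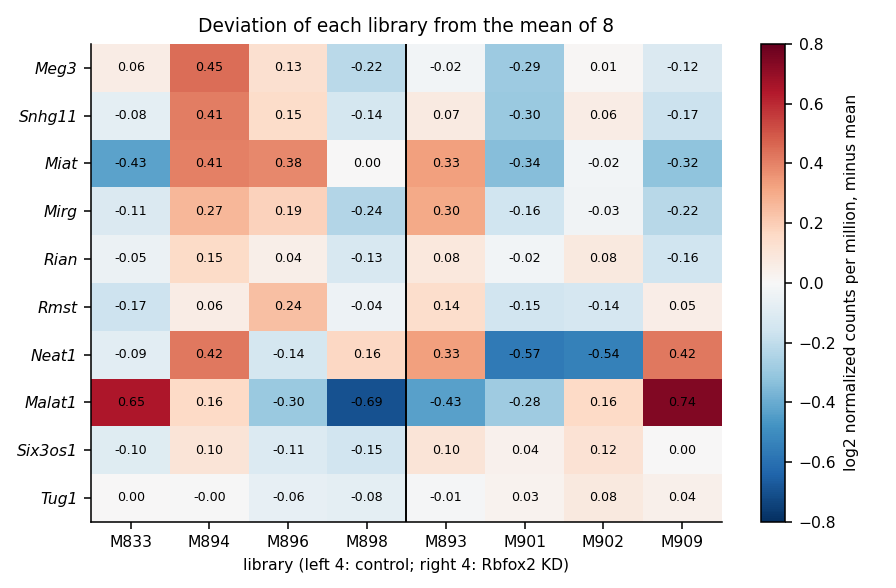
Log2 CPM of each lncRNA minus its own mean over 8 libraries (red above, blue below), with controls left of the line and Rbfox2 KD libraries right of it. All but Tug1 and Six3os1 are above their means in M894 and below in M901, where Rian is at -0.02. Malat1 is highest in M833 and M909 and Neat1 lowest in M901 and M902.

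The genes closest to Meg3 in pattern over the 8 libraries, among 16796 others, were Kcnt1 (a sodium-activated potassium channel, r = 0.971), Psme4 (a proteasome activator, 0.962), Prpf40b (a splicing factor, 0.962), Agrn (agrin, 0.957) and Parp8 (0.952). Those closest to Malat1 were Taf1 (a subunit of the general transcription factor TFIID, r = 0.977), Crybg3 (0.972), Arl9 (0.967), Spg11 (0.964) and Rpgr, a ciliary protein of photoreceptors (0.962). At r over 0.9 there were 42 genes for Meg3 and 109 for Malat1. Neither set was tested, and 8 libraries give these values little precision.

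The nearest gene of the table on each side of each lncRNA was read from the same fit. For the genes tested the gaps were 3610 to 889722 bases. Of the 15 neighbouring genes tested that are not among the 10, 0 were called by edgeR's quasi-likelihood test, 4 had an unadjusted p under 0.05, against 13.3% of all genes, and DESeq2 called 0. The 4 fell to 1 without M901 and M902, where the share over all genes was 6.01%, and to 0 with 1 surrogate variable, where it was 6.45%. Of single libraries left out, M898 left 0, M901 left 1 and M902 left 2 at an unadjusted p under 0.05. All 4 had fitted values below 0. Dio3os, 525925 bases from Mirg, had 3.95 ± 0.50 CPM in controls and 2.15 ± 1.13 in Rbfox2 KD (SD, n = 4 each). Smtn, 99173 bases from Tug1, had 9.80 ± 1.45 and 8.24 ± 0.71. Lbp, 42786 bases from Snhg11, and E130006D01Rik, 451503 bases from Miat, were under 0.3 CPM in every library. Dio3os was lowest in M901 and M902 (1.31 and 1.04 against 3.10 to 4.40 in the other 6). Dlk1, 77665 bases from Meg3, and Rtl1, 3610 bases from Rian, are paternally expressed coding genes. They were low but counted in every library, with 0.101 to 0.220 and 0.047 to 0.125 CPM. A floor of 3 counts per library corresponds to 0.0144 to 0.0189. Mir3070b, on the other side of Meg3, was removed by the filter. Frmd8 beside Neat1 had an adjusted edgeR p value of 0.887.

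Imprinted genes, and genes of nuclear bodies, RNA processing, RNA decay and partner factors, were counted from lists chosen with earlier results known. The imprinted genes share imprinting with Meg3, Rian and Mirg and were not listed as their partners. By edgeR's quasi-likelihood test 0 genes were called in each list, against 0.0655% of all genes. Over all genes 13.3% had an unadjusted edgeR p under 0.05 (6.01% without M901 and M902), and DESeq2 called 2.74%. Of 39 imprinted genes tested, 6 had an unadjusted p under 0.05, 2 above 0 and 4 below, with a median log2 fold change of -0.0071. The lowest p values were those of Nnat (log2 fold change 0.25, adjusted p = 0.184 by edgeR), Mcts2 (0.25, 0.224), Magel2 (-0.49, 0.233) and Cdkn1c (-0.31, 0.273), and DESeq2 called Mcts2 and Nnat. Of 22 paraspeckle proteins 3 had an unadjusted p under 0.05 and 0 were called by DESeq2 (median 0.05): the core protein Pspc1 (-0.15) and, with values above 0, Hnrnph3 (0.16) and Sfpq (0.17), with adjusted edgeR p values of 0.277, 0.316 and 0.344. Of 24 nuclear speckle proteins only the splicing factor U2af2 had an unadjusted p under 0.05, and the median was 0.02. Its log2 fold change was 0.12 (adjusted p = 0.322 by edgeR's quasi-likelihood test). When M901 and M902 were left out, the genes at an unadjusted edgeR p under 0.05 were 5 imprinted genes and 0 in both protein lists, and the medians were -0.03, 0.02 and -0.0024. Without M833 such genes were 9 of the 22 paraspeckle and 4 of the 24 nuclear speckle proteins, and 2965 of all 16887 genes tested. Without M896 they were 0 in both protein lists.

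Among the 12 genes for the processing of the Malat1 end, 2 had an unadjusted p under 0.05, Rpp38 (log2 fold change 0.23), a subunit of RNase P, and Elac2 (0.10), the tRNA end nuclease, with adjusted edgeR p values of 0.322 and 0.375. The list had 11 values above 0 and a median of 0.10, against 0.0016 over all genes. The median was 0.07 (without M902) to 0.12 (without M909) with a library left out. It was 0.05 without M901 and M902 and 0.04 with 1 surrogate variable. Without M909, 5 of the 12 had an unadjusted edgeR p under 0.05, as did 2992 of all 16840 genes tested. Among 18 genes of nuclear RNA decay, 16 were above 0 with a median of 0.06. Only the exosome subunit Exosc7 had an unadjusted p under 0.05, with a log2 fold change of 0.15 and an adjusted edgeR p value of 0.340. The median of the decay genes was 0.02 both without M901 and M902 and with 1 surrogate variable. With a library left out it was 0.04 (M902) to 0.08 (M833), and without M909 5 of the 18 had an unadjusted edgeR p under 0.05. Of 17 chromatin and factor partners 3 had an unadjusted p under 0.05, Hnrnpa2b1 (0.19), Six6 (-0.13) and Eya1 (-0.43), with adjusted edgeR p values of 0.243, 0.277 and 0.353. At an unadjusted edgeR p under 0.05 the share over all genes was 13.3%. Without M901 and M902, and likewise with the surrogate variable, 0 genes of these 3 lists had such a p, against 6.01% and 6.45% of all genes. DESeq2 called 0 genes in each of these 3 lists and among the nuclear speckle proteins, against 2.74% of all genes.

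Of a list of 64 other lncRNAs, 40 were in the table and 39 were tested. By edgeR's quasi-likelihood test 0 were called, and the median log2 fold change of the list was 0.02. At an unadjusted p under 0.05 there were 5, against 13.3% of all genes. These were Xist (adjusted p = 0.176), Mir22hg (log2 fold change -0.23, adjusted p = 0.243), Jpx (0.37, 0.262), Tsix (2.18, 0.263) and Vax2os (0.25, 0.357), of which Xist, Jpx and Tsix belong to the X inactivation centre and Xist had its counts in M901 and M902. DESeq2 called 1, Xist, against 2.74% of all genes. Leaving out M901 and M902 left 1 at an unadjusted edgeR p under 0.05, with a median of 0.06, and with 1 surrogate variable there were 0. The shares over all genes were then 6.01% and 6.45%. In 4 of the 39 the groups did not overlap, against 7.03% of all genes.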

How the data were processed

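Whole retinas of 4 control and 4 Rbfox2 KD mice were sequenced by the authors as poly(A) mRNA libraries and aligned to mm10 (GRCm38) with STAR, and only uniquely mapped fragments were counted per gene with HTSeq, so the deposited table holds raw counts. The authors also deposited FPKM per library, used here only for the order of levels. The deposited adjusted counts, a depth-scaled signal, and the log2 fold changes, p-values and FDR of the authors' own edgeR comparison were not used. The authors' methods name RefSeq and Ensembl annotations of mm10 for the counting, without saying which set the rows. The versions of STAR and HTSeq and the strand setting are not given in the sources used here.

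From the counts, genes passing edgeR's filterByExpr (16797 of 17500) were scaled by TMM and fitted with the quasi-likelihood test of edgeR 4.0.16 in R 4.3.3, Rbfox2 KD against control, with Benjamini-Hochberg adjustment and a threshold of 0.05. Fits with DESeq2 1.42.0, limma 3.58.1 and a surrogate variable from sva 3.50.0 were alternatives, as were other scalings, filters and sets of libraries. The test was checked on simulated data with 16824 genes, where 91% of 2-fold and 75% of 1.5-fold changes were called, with 10 false calls. Changes as small as those fitted for the 10 lncRNAs (folds of 0.855 to 1.091) were not covered by this check. No pair of libraries was alike within sampling noise (lowest chi-square per degree of freedom 34.1, M901 and M902). Nothing ties libraries across groups, so no pairing entered, and p-values measure the spread between these mice.

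The 10 lncRNAs, the gene lists and the tests were chosen with earlier results of these data known. The text names the 10, up to 4 genes per list with the lowest p, neighbours in the table, the 5 genes most like Meg3 and Malat1, and promoters of the 4 lncRNAs with the lowest p. Vax2os, to complete a count, and the antisense partners Six3 and Morc2a were named after their values were seen. Positions are from GENCODE M21, and sequences from it or from RefSeq GRCm38.p6. Floors cover counting error only. The values of 1 neighbouring gene are not reported here.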

Additional observations from a re-analysis of the deposited data

How the results depend on the processing

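The number of genes called was 11, and 460 with DESeq2, 5 with 1 surrogate variable, 1 without M901 and M902, and 5 to 35 with a library left out. The 10 lncRNAs gave 0 calls in all 18 alternatives. Other lncRNAs gave 1 call with DESeq2 (Xist), and the neighbouring genes of the 10 gave 0 throughout. Of 180 refitted log2 fold changes, 162 kept their sign and 18, in 5 lncRNAs, did not, and 0 passed the threshold. With a library left out the range was -0.055 to 0.040 for Rian, -0.17 to 0.033 for Mirg, -0.20 to 0.35 for Malat1, -0.31 to 0.020 for Neat1 and -0.11 to 0.027 for Rmst. Without M901 and M902 the sign turned for Mirg (0.022), Neat1 (0.26) and Rmst (0.061), and with the surrogate variable for Mirg (0.0098), Neat1 (0.36) and Rmst (0.066). Meg3, Miat, Snhg11, Tug1 and Six3os1 kept their sign in all 18, though with a library left out the range was -0.32 to -0.099 for Meg3, -0.35 to -0.086 for Miat and -0.25 to -0.058 for Snhg11. The pair Meg3 and Snhg11 lay at the threshold: 0 pairs passed in the main computation, 1 with RLE or upper-quartile scaling or with the 10 left out of the library size, and 0 to 3 with a library left out, alternatives chosen after seeing the data. Per kilobase of all annotated exons 0 of 10 kept their rank. The cause of these changes was not tested, except that the last follows from the lengths used.

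No paired analysis was possible because the labels give no numbers shared by the groups. With 4 libraries a group and the spread of Malat1, Neat1 and Miat, differences within their wide intervals were not detectable. The lowest counts were 706 for Rmst and 757 for Mirg in a library.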

Other observations

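The 20 groups of 4 libraries (10 lncRNAs in control and in Rbfox2 KD) held no single library set apart by Dixon's ratio, whose highest value was 0.804, under the 95% critical value. This ratio cannot flag 2 libraries that move together. M901 and M902 for Neat1 (14.6 and 14.9 against 27.2 and 29.0 CPM in M893 and M909) are such a case. The spread of Meg3 and Snhg11, though much smaller than that of Malat1, was also at the upper end for abundant genes: their within-group SD of log2 values was 0.22 each, at percentiles 98.4 and 98.5 of the 4622 genes with a mean of 50 CPM or more, while Six3os1 was at percentile 77.2, Rian at 89.4 and Tug1 at 14.4. The share of all counts taken by Malat1 alone ranged from 0.0512% in M898 to 0.135% in M909.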
